A study of Mus musculus with 8 samples.

Results

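The genes described here encode the adhesive core of the desmosome in mouse epidermis and corneodesmosin, a protein added to desmosomes in the outermost layers. They were taken by name as a set of 10, namely the desmogleins Dsg1a and Dsg3, the desmocollins Dsc1, Dsc2 and Dsc3, the plaque proteins Dsp, Jup, Pkp1 and Pkp3, and Cdsn. All 10 were among the 15995 gene symbols with values and among the 11395 that were tested. RNA had been sequenced from the epidermis of newborn C57BL/6J mice, in 4 libraries from Zfp750-/- knockouts (KO1 to KO4) and 4 from wild-type mice (WT1 to WT4), with no treatment other than the overnight cold trypsin that freed the epidermis from the dermis. Zfp750 encodes a zinc finger protein of differentiating keratinocytes, and the study asked what its loss does to the lipids and barrier of the skin. The labels do not say which part of the gene was removed, or whether each library came from its own animal or litter, so the p-values below measure the spread between these libraries, some of which may be technical. Levels are FPKM, fragment counts scaled to transcript length and library size, as deposited.

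Desmosomes are adhesive junctions in which desmogleins and desmocollins, both cadherins, bind their partners on the neighbouring cell. Inside the cell, plakoglobin (Jup) and the plakophilins hold the cadherin tails, and desmoplakin (Dsp) ties the plaque to keratin filaments. The cadherins are layered in skin, with Dsg3 and Dsc3 strongest in the lower layers and Dsg1 and Dsc1 in the upper layers. Corneodesmosin is secreted by granular cells, joins the desmosome of the cornified layer and is cut by proteases when cells are shed.

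Cdsn lies on chromosome 17 of GRCm38, from 35552128 to 35557180 on the plus strand, with 2 exons in the GENCODE annotation. Its upstream sequence is shown because Cdsn was the one gene of the set that fell in KO and because RefSeq (GRCm38.p6) holds it. The 250 bases before the annotated start, chr17:35551878-35552127 on the plus strand, have a GC content of 64.0% and read 5′ to 3′ as follows, with capitals for 2 motif matches.
Cdsn upstream: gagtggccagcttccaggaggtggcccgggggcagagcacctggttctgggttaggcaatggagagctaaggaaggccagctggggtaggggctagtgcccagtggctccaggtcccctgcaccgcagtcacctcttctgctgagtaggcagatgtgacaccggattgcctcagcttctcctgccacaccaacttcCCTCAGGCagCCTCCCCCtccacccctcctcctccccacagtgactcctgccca
The first match is to CCNNAGGC, a motif reported for human ZNF750, and spans positions -54 to -47 counted from the start. The second is to CCNCNCCC, the core shared by KLF and Sp factors, and spans -44 to -37. Both strands were searched, and the matches do not overlap. Of 32851 promoter windows of the same 250 bases, 20.4% held CCNNAGGC and 45.9% held CCNCNCCC. TGANTCA, the AP-1 site, was in 6.75% of windows and TATAAA, the TATA box, in 12.4%, and neither was found in this one. Windows were also at hand for Dsp, with 1 CCNNAGGC match and 5 CCNCNCCC matches, and for Jup, with 1 match to CCNCNCCC alone. A match is a run of letters and says nothing of binding.

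The targeted gene was low in every library labelled KO. Zfp750 stood at 2.68, 2.31, 2.29 and 1.53 FPKM in KO1 to KO4, against 119, 111, 81.6 and 93.7 FPKM in WT1 to WT4. Summed FPKM ran from 483416 to 577300 per library, with 10637 to 11599 genes at 1 FPKM or more. Xist, which coats an inactive X chromosome, was at 126, 84.6, 150.4 and 1.84 FPKM in KO1 to KO4, against 0.0223, 0.0087, 118 and 0.0082 FPKM in WT1 to WT4. The sex of the mice is not labelled, so the changes of Dsg3, Dsc2 and Cdsn are also given with log2 Xist as a covariate, and lost calls of other named genes are stated. The sample titles carry a code, 11, 14 or 44, whose meaning is not given; KO1 and WT4 share code 11, KO2 and WT3 share 14, and KO3, KO4, WT1 and WT2 share 44. Within-code differences are therefore given too.

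Dsg3, Dsc2 and Cdsn differed between the genotypes, and the other 7 genes did not pass the test. Dsg3 was 4.14-fold and Dsc2 2.67-fold higher in KO by mean FPKM, and Cdsn was at 0.433 of its WT mean. By limma with an adjusted p below 0.05 over all 11395 genes, 2 of the 10 were higher in KO and 1 was lower. Of all genes tested 15.7% were called, with 6.72% higher in KO and 8.94% lower. Every KO library lay above every WT library for 3 of the 10 genes (Dsg3, Dsc2 and Pkp3), against 8.78% of all genes, and every KO library lay below every WT library for 1 (Cdsn), against 12.5% of all genes. The median log2 change over the 10 genes was -0.02, and over all genes it was 0.01. In bulk epidermis, fewer cells of a type and less RNA per cell cannot be told apart.

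**Figure D1:**
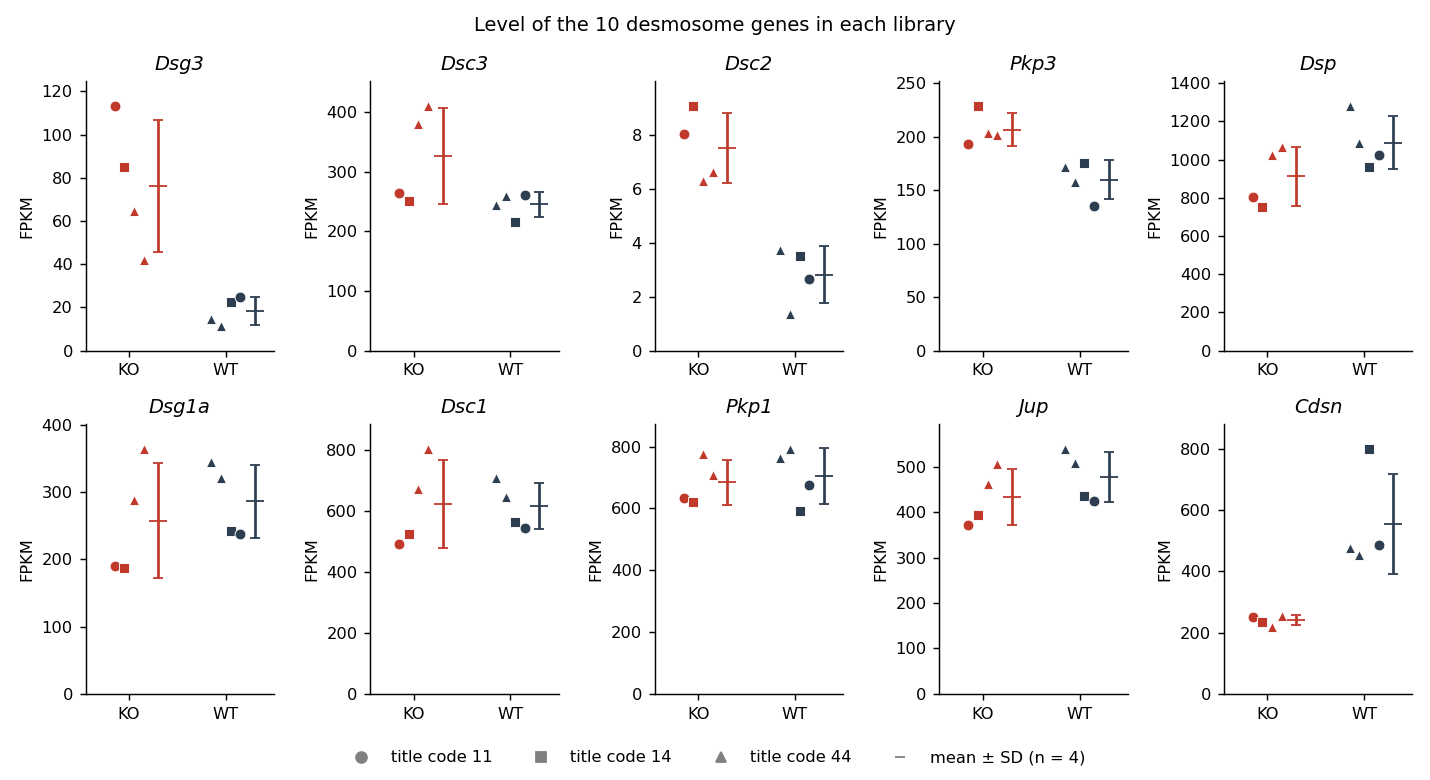
FPKM of the 10 genes in each library (vertical axes, each starting at 0), with KO on the left and WT on the right of every panel; marker shapes give the title code, and the bar gives mean ± SD of 4 libraries. The KO points lie above all WT points for Dsg3, Dsc2 and Pkp3 and below them for Cdsn, and the groups overlap in the other 6 panels.

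The genes of the set differed widely in level. Dsp was the most abundant in both genotypes, at 911 ± 156 FPKM in KO and 1088 ± 139 FPKM in WT (SD, n = 4 each). In KO it was followed by Pkp1, Dsc1, Jup, Dsc3, Dsg1a, Cdsn, Pkp3, Dsg3 and Dsc2. In WT the order was Pkp1, Dsc1, Cdsn, Jup, Dsg1a, Dsc3, Pkp3, Dsg3 and Dsc2. In KO the values of each gene overlapped those of the next in the order, as far as Pkp3, which lay above Dsg3 in every library, and Dsg3 above Dsc2. In WT, Dsp, Jup, Dsc3, Pkp3 and Dsg3 each lay clear above the next gene in the order, and the other neighbours overlapped. Ranked among all 11395 genes by mean FPKM, Dsp came at place 68 in KO and 54 in WT, and Cdsn at place 265 in KO and 142 in WT. Dsg3 held place 810 in KO and 3655 in WT, and Dsc2, the scarcest, place 6761 in KO and 9313 in WT.

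Dsg3, the desmoglein of the lower epidermal layers and the main autoantigen of pemphigus vulgaris in humans, was measured at 113, 85.1, 64.6 and 41.8 FPKM in KO1 to KO4, against 14.7, 11.2, 22.7 and 25.0 FPKM in WT1 to WT4. Each KO value exceeded each WT value, and KO4 came closest to the WT range. The means were 76.2 ± 30.5 FPKM in KO and 18.4 ± 6.51 FPKM in WT (SD, n = 4 each). The log2 change was 1.97 ± 0.33 (SE, limma adjusted p = 0.0035), with a 95% interval of 1.24 to 2.70. The difference was 2.00 in codes 11 and 14 and 1.94 in code 44, and with Xist as a covariate it was 1.54 (limma adjusted p = 0.0193). Among the genes of the set Dsg3 varied most between KO libraries, with a coefficient of variation of 39.9%.

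Dsg3 was not alone among lower-layer genes. Of 12 basal keratinocyte markers, all tested, 7 were higher in KO by limma and 5 did not pass, with a median log2 change of 1.40. Itgb1 and Itgb4, integrin subunits of the basal cell surface, were higher by 2.46 ± 0.33 and 2.09 ± 0.33 on the log2 scale (SE, limma adjusted p = 0.0012 and 0.0025). Lamb3, a laminin-332 chain, was higher by 1.56 ± 0.38 (SE, limma adjusted p = 0.0225), and Col17a1, the hemidesmosomal collagen, by 1.48 ± 0.33 (SE, limma adjusted p = 0.0148). With Xist as a covariate 2 of the 12 passed, and the calls of Col17a1 (limma adjusted p = 0.0922) and Lamb3 (0.132) were lost. The number passing was 3 without KO1, KO2, KO3 or WT2 and 4 without WT1, and Lamb3 was lost without KO1, KO2, KO3 or WT2 (limma adjusted p = 0.0562 to 0.0677). The summed level of the 12 was 6601, 4778, 5667 and 2538 FPKM in KO1 to KO4, against 1220, 1844, 2908 and 3761 FPKM in WT1 to WT4. The sums overlapped over all libraries, and within each title code every KO sum lay above every WT sum, as it did for Dsg3. Krt14 and Krt5 together made up most of each sum. Krt14 was at 1112 to 3330 FPKM in KO and 417 to 1253 FPKM in WT. Krt5 was at 531 to 1803 FPKM in KO and 358 to 1260 FPKM in WT. The sums thus say little of the other basal markers. The part of basal cell content in the change of Dsg3 was not tested.

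Dsg1a is a mouse desmoglein 1 gene, the upper-layer form and the target of staphylococcal exfoliative toxins. It was measured at 190.4, 187, 289 and 364 FPKM in KO1 to KO4, against 344, 321, 242 and 238 FPKM in WT1 to WT4. The groups overlapped, with KO4 the highest and KO2 the lowest library of all 8. The log2 change was -0.19 ± 0.23 (SE, limma adjusted p = 0.648), with a 95% interval of -0.71 to 0.33. Of the 75-base windows of its transcript, 29.2% also occur in Dsg1b or Dsg1c, so reads may have been shared and the value of Dsg1a alone is uncertain. Dsg1b, its close copy, averaged 120 ± 27.4 FPKM in KO and 144 ± 29.6 FPKM in WT and did not pass either (limma adjusted p = 0.418). With array weights Dsg1b passed, as lower (limma adjusted p = 0.0440).

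Of the 3 desmocollins, Dsc2 rose in KO and the others did not pass. Dsc2, the form widespread in simple epithelia and heart, was measured at 8.04, 9.09, 6.29 and 6.64 FPKM in KO1 to KO4, against 3.72, 1.37, 3.50 and 2.67 FPKM in WT1 to WT4. All KO libraries lay above all WT libraries. The log2 change was 1.19 ± 0.23 (SE, limma adjusted p = 0.0074), with a 95% interval of 0.68 to 1.71. It was 1.23 in codes 11 and 14 and 1.16 in code 44, where the call was lost with 2 libraries per genotype (limma adjusted p = 0.0968). With Xist as a covariate it was 1.02 (limma adjusted p = 0.0487).

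Dsc3, the lower-layer desmocollin, was measured at 265, 250.4, 379 and 411 FPKM in KO1 to KO4, against 245, 259.8, 215 and 260.0 FPKM in WT1 to WT4. KO3 and KO4 stood above every WT library, KO1 narrowly so, and KO2 fell among the WT values. The log2 change of 0.38 ± 0.18 did not pass (SE, limma adjusted p = 0.188), with a 95% interval of -0.01 to 0.78. The difference was 0.12 in codes 11 and 14 and 0.64 in code 44, and in code 44 alone it passed (limma adjusted p = 0.0323). Dsc1, the desmocollin of the upper layers, was measured at 492, 526, 672 and 806 FPKM in KO1 to KO4, against 710.0, 647, 566 and 545 FPKM in WT1 to WT4. KO held both the highest and the lowest values, and the log2 change was -0.00 ± 0.18 (SE, limma adjusted p = 0.991), with a 95% interval of -0.40 to 0.39.

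**Figure D2:**
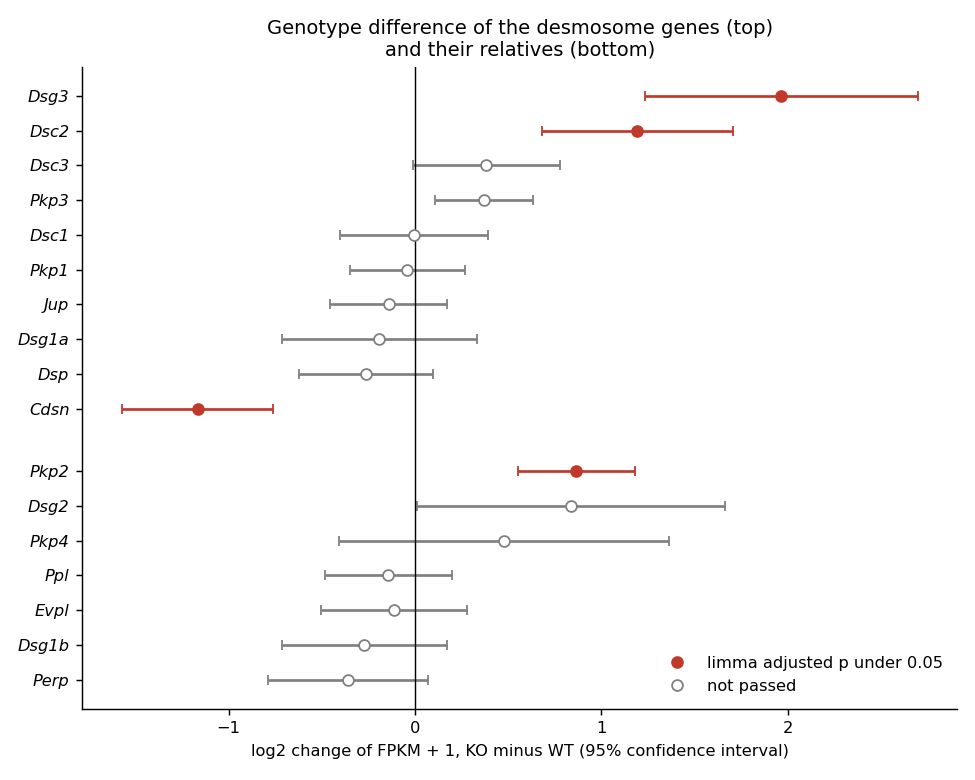
Log2 change of FPKM + 1, KO minus WT (horizontal axis), for the 10 genes (top) and for related desmosome genes (bottom), with 95% confidence intervals; filled points passed limma at an adjusted p of 0.05. Dsg3 at 1.97 and Dsc2 at 1.19 lie right of 0, and Cdsn at -1.17 lies left of 0. Of the related genes drawn Pkp2 at 0.87 passed, but it reached the minimum for testing through its KO libraries alone.

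Among the plaque genes none of the 4 passed by limma, where Pkp3 alone had an unadjusted p below 0.05. Pkp3, the plakophilin found in all living layers, was measured at 193, 229, 203 and 201 FPKM in KO1 to KO4, against 172, 157, 176 and 135 FPKM in WT1 to WT4. All KO libraries lay above all WT libraries, by a gap smaller than the range within either group. The log2 change was 0.37 ± 0.12 (SE, limma adjusted p = 0.0602), with a 95% interval of 0.11 to 0.64. It passed with title code as a block (limma adjusted p = 0.0315), with array weights (0.0165) and with quantile normalization (0.0481). The gene spans 141078218 to 141090510 on the plus strand of chromosome 7 (GRCm38) and has 14 exons in its longest coding transcript.

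Pkp1, the plakophilin of the suprabasal layers, was measured at 633, 620.4, 777 and 708 FPKM in KO1 to KO4, against 761, 793, 592 and 676 FPKM in WT1 to WT4. The groups overlapped throughout, and the log2 change was -0.04 ± 0.14 (SE, limma adjusted p = 0.879), with a 95% interval of -0.35 to 0.27. Pkp1 lies on chromosome 1 from 135871395 to 135919207, on the minus strand, with 14 exons in its longest coding transcript.

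Dsp, which anchors keratin filaments to the plaque, was measured at 805, 752, 1022 and 1067 FPKM in KO1 to KO4, against 1282, 1086, 963 and 1021 FPKM in WT1 to WT4. KO1 and KO2 lay below every WT library, and KO3 and KO4 lay within the WT range. The log2 change was -0.26 ± 0.16 (SE, limma adjusted p = 0.329), with a 95% interval of -0.62 to 0.10, and it passed with array weights (limma adjusted p = 0.0471). Dsp lies on chromosome 13 from 38151294 to 38198577, on the plus strand, and its exons overlap those of the antisense gene Gm10129. Whether the authors' quantification used strand is not given, so reads of the pair cannot be told apart. Jup, plakoglobin, was measured at 372, 393, 462 and 505 FPKM in KO1 to KO4, against 539, 508, 435 and 425 FPKM in WT1 to WT4. The groups overlapped, and the log2 change was -0.14 ± 0.14 (SE, limma adjusted p = 0.559), with a 95% interval of -0.46 to 0.17. It lies on chromosome 11 from 100368958 to 100397763, on the minus strand.

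Cdsn, whose upstream sequence is given above, was the one gene of the set that fell in KO. It was measured at 252, 235, 218 and 253 FPKM in KO1 to KO4, against 477, 451, 799 and 487 FPKM in WT1 to WT4. Every KO library lay below every WT library, and the KO values were close together while WT3 stood well above the other WT libraries. The means were 239.6 ± 16.4 FPKM in KO and 554 ± 164 FPKM in WT (SD, n = 4 each). The log2 change was -1.17 ± 0.18 (SE, limma adjusted p = 0.0025), with a 95% interval of -1.57 to -0.76. It was -1.36 in codes 11 and 14, -0.98 in code 44, -1.39 with Xist as a covariate (limma adjusted p = 0.0021) and -0.98 without WT3 (limma adjusted p = 0.0006).

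Markers of the differentiated layers, where Cdsn is made, did not share one direction. Of 12 suprabasal markers 9 were tested, and 1 was higher, 2 were lower and 6 did not pass by limma. Their median log2 change was -0.18. Over all genes 6.72% were higher and 8.94% lower. Ivl, involucrin of the cornified envelope, was higher in KO by 1.46 ± 0.19 on the log2 scale (SE, limma adjusted p = 0.0008). Casp14, the protease of terminal differentiation, fell by 1.40 on the log2 scale (limma adjusted p = 0.0055), and Calml3, a calmodulin-like protein, fell by 0.68 (limma adjusted p = 0.0315). The call of Calml3 was lost in 7 of 18 alternatives, namely with Xist as a covariate, in codes 11 and 14 alone and without KO1, KO2, KO3, WT1 or WT2 (limma adjusted p = 0.0656 to 0.184). Lor, loricrin, differed by -0.35 ± 0.18 and did not pass (SE, limma adjusted p = 0.255). The summed level of the 9 was 12550.4 to 19047 FPKM in KO and 13839 to 17196 FPKM in WT, so the sums overlapped. Krtdap was the largest part, at 7377 to 11452 FPKM in KO and 6307 to 9588 FPKM in WT. The sums thus say little of the lower genes. Krt1 and Krt10, the keratins of the suprabasal layers, were not tested, since they are listed at 0 in KO3, KO4 and every WT library and at 11387 to 13833 FPKM in KO1 and KO2.

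The make-up of each cadherin family was then set out per library, as the share of its summed FPKM. The summed desmoglein level was 464 ± 81.3 FPKM in KO and 455 ± 75.0 FPKM in WT (SD, n = 4 each), and the groups overlapped. Dsg3 made up 27.2%, 22.5%, 12.9% and 7.49% of it in KO1 to KO4, against 2.74%, 2.25%, 5.64% and 6.57% in WT1 to WT4. The share was higher in each KO library than in any WT library, with KO4 just above the WT maximum. Dsg1b made up 25.6% ± 1.98 in KO and 31.6% ± 1.93 in WT, again without overlap, but 39.7% of its 75-base windows are shared with Dsg1a or Dsg1c, so the split between these copies is uncertain for Dsg1b as well. Dsg1a overlapped at 54.4% ± 8.78 in KO and 62.8% ± 1.91 in WT. The shares of 1 family sum to the whole, so a larger share of Dsg3 lowers the others.

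The desmocollin sum was 958 ± 221 FPKM in KO and 865 ± 82.5 FPKM in WT (SD, n = 4 each). Dsc1 made up 65.2% ± 1.55 of it in KO and 71.2% ± 2.77 in WT, with every KO library below every WT library. The margin was small, at 67.0% for the highest KO library against 67.5% for the lowest WT library. The level of Dsc1 itself did not pass, and a larger share of Dsc3 lowers that of Dsc1. Dsc3 made up 34.0% ± 1.70 in KO and 28.5% ± 2.81 in WT, with overlap at WT4. Dsc2 never exceeded 1.16% of the desmocollin sum. Among plakophilins Pkp1 made up 74.6% ± 3.27 in KO and 79.9% ± 3.20 in WT, and Pkp3 22.7% ± 2.41 in KO and 18.3% ± 2.85 in WT, both with overlap.

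**Figure D3:**
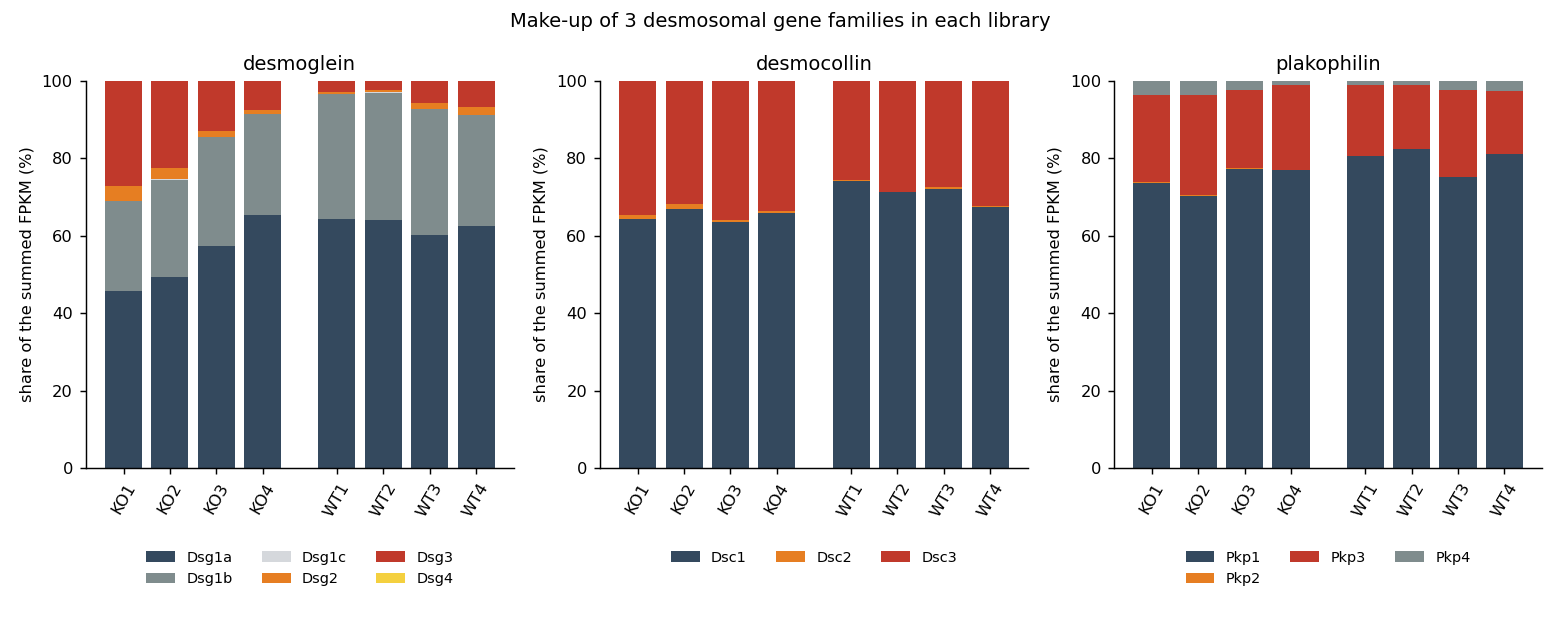
Share of the summed FPKM (vertical axis, percent) that each gene took within the desmogleins, desmocollins and plakophilins, in each KO library (left 4 bars of a panel) and each WT library (right 4 bars). Dsg3 (red, left panel) took 7.49% to 27.2% in KO and 2.25% to 6.57% in WT, and Dsc1 (dark, middle panel) took 63.5% to 67.0% in KO and 67.5% to 74.1% in WT.

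Ratios within a library set desmosome genes against each other. Of the 6 taken, only Dsg3 to Dsg1a and Dsc3 to Dsc1 pair a lower-layer with an upper-layer form. All 6 were tested by two-sided exact permutation over the 70 assignments of the libraries, for which 0.0286 is the smallest p. They reuse the values given above for each gene, so they add no separate support. The ratio of Dsg3 to Dsg1a was 0.595, 0.456, 0.224 and 0.115 in KO1 to KO4, against 0.0426, 0.0351, 0.0937 and 0.105 in WT1 to WT4. All KO ratios lay above all WT ratios, KO4 by a small margin over WT4. The log2 difference was 2.22, a fold of 4.67 (exact permutation p = 0.0286, adjusted over the 6 ratios p = 0.0429), and it was 2.25 when Dsg1a, Dsg1b and Dsg1c were summed. The ratio of Dsg3 to Dsp, which sets Dsg3 against the common plaque protein, differed by 2.29 on the log2 scale (exact permutation p = 0.0286, adjusted p = 0.0429).

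The desmocollin ratios gave a smaller difference for the layer pair. Dsc3 to Dsc1 was 0.538, 0.476, 0.565 and 0.510 in KO1 to KO4, against 0.345, 0.402, 0.381 and 0.477 in WT1 to WT4. KO2 fell just below WT4 and the other KO ratios lay above every WT ratio, so that the log2 difference of 0.39 did not pass (exact permutation p = 0.0571, adjusted p = 0.0686). Dsc2 to Dsc1 differed by 1.50 (exact permutation p = 0.0286, adjusted p = 0.0429), with no overlap. Pkp3 to Pkp1 differed by 0.42 and did not pass (exact permutation p = 0.0857, adjusted p = 0.0857).

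Cdsn was lower also when set against Dsg1a, a partner of the same outer layers whose own change did not pass. Since the same Cdsn values enter, this is not separate support, and the value of Dsg1a alone is uncertain. The ratio was 1.32, 1.26, 0.757 and 0.695 in KO1 to KO4, against 1.39, 1.41, 3.30 and 2.05 in WT1 to WT4. The highest KO ratio lay close under the lowest WT ratio, and the log2 difference was -0.98 (exact permutation p = 0.0286, adjusted p = 0.0429). Each of the 4 ratio calls was lost, with direction kept, when KO3, KO4 or any 1 WT library was left out. The adjusted p then lay between 0.0571 and 0.114 by exact permutation. With all libraries the adjusted p of 0.0429 was reached because all 4 ratios had the smallest p. Dsg3 and Dsg1a each enter more than 1 of them. Without KO3 or KO4, Dsg3 to Dsg1a, Dsc2 to Dsc1 and Dsg3 to Dsp had the smallest exact permutation p, 0.0286 (adjusted p = 0.0571). Their calls were lost there through the adjustment over the 6 ratios.

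**Figure D4:**
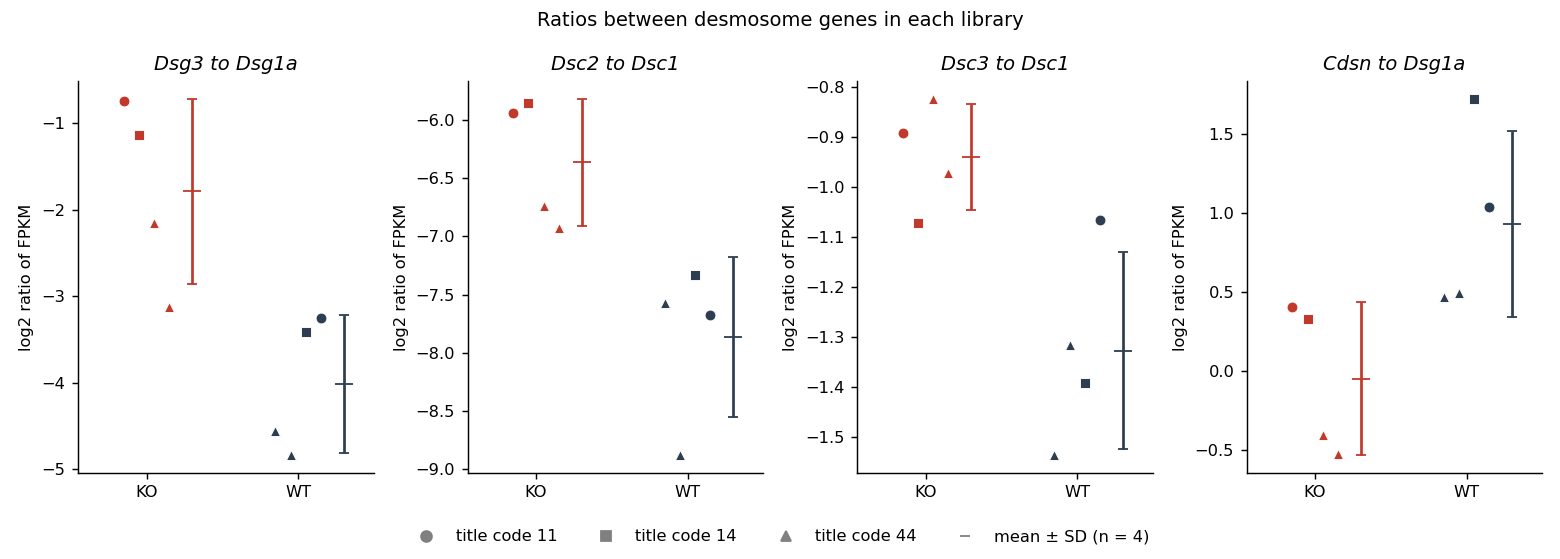
Log2 ratio of FPKM (vertical axes, not starting at 0) of 4 gene pairs in each library, with KO left and WT right, marker shapes for the title code and bars for mean ± SD of 4 libraries. The groups do not overlap for Dsg3 to Dsg1a, Dsc2 to Dsc1 and Cdsn to Dsg1a, and they overlap for Dsc3 to Dsc1, where KO2 lies under WT4.

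Within a genotype, Dsg3 ran opposite to several other genes of the set from library to library. After each genotype's mean was subtracted from log2(FPKM + 1), Dsg1a and Dsc1 correlated at 0.987 over the 8 libraries, Dsc1 and Jup at 0.977 and Dsg1a and Dsp at 0.941. Dsc3 went with these genes and not with Dsg3, at 0.825 with Dsc1 and -0.718 with Dsg3. Dsg3 stood at -0.915 with Dsg1a, -0.912 with Dsc1 and -0.936 with Jup. These correlations are descriptions over 8 libraries that share tissue and preparation. Cdsn did not go with the upper-layer cadherins, at -0.286 with Dsg1a and -0.226 with Dsc1, and stood at -0.770 with Pkp1. The Cdsn correlations lean on WT3, which had 799 FPKM against 451 to 487 FPKM in the other WT libraries. In KO its values ran only from 218 to 253 FPKM. Pkp3 correlated weakly with Dsg1a at 0.018, Dsc1 at 0.12 and Dsg3 at -0.16.

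This opposition followed the title codes. KO1 and KO2, in codes 11 and 14, had the higher Dsg3 and lower Dsg1a of the KO libraries, and WT3 and WT4, in the same codes, had the higher Dsg3 and lower Dsg1a of the WT libraries. Over all tested genes the deviations of the 6 KO and WT pairs with the same code correlated at 0.39, 0.24, -0.15, 0.09, 0.43 and 0.33, and those of pairs with different codes at -0.43 to 0.20. Since the labels do not say what the code marks and the study's design text names no covariate, the code entered as a block in an alternative only. By the same measure the genes most like Dsg3 were Atp13a3 at 0.993, Myadm at 0.991 and Hfe at 0.987. Those most like Dsc1 were Mocs1 at 0.989, Sirt2 at 0.988 and Sept8 at 0.988. Those most like Cdsn were Brpf3 at 0.971, Wipi2 at 0.965 and Cdc42bpb at 0.962. All of these last were highest in WT3, as Cdsn was, so their likeness to Cdsn leans on that library.

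The cadherin genes sit side by side in 1 cluster on chromosome 18, in the order Dsc3, Dsc2 and Dsc1 on the minus strand, then Dsg1c, Dsg1a, Dsg1b, Dsg4, Dsg3 and Dsg2 on the plus strand. Neighbours in it differed in level. Dsc2, between Dsc3 and Dsc1, averaged 7.52 ± 1.29 FPKM in KO and 2.82 ± 1.06 FPKM in WT, while Dsc3 averaged 326 ± 80.6 FPKM in KO and 245 ± 21.0 FPKM in WT. Dsg4, the desmoglein of the hair shaft, and Dsg1c stayed below 1 FPKM in every library and were not tested. Dsg2, the desmoglein of simple epithelia and heart, neighbours Dsg3 and was measured at 16.2, 10.8, 8.31 and 5.0 FPKM in KO1 to KO4, against 2.94, 3.11, 6.26 and 8.41 FPKM in WT1 to WT4. Over all libraries the groups overlapped, while within each title code every KO value lay above every WT value. The log2 change of 0.84 ± 0.37 did not pass (SE, limma adjusted p = 0.171). It passed with title code as a block, at 0.84 ± 0.17 (SE, limma adjusted p = 0.0083), with array weights (0.0113) and without KO4 (0.0462). Dsg2 exons overlap the antisense gene Gm16090, so its reads are uncertain in the same way as those of Dsp.

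**Figure D5:**
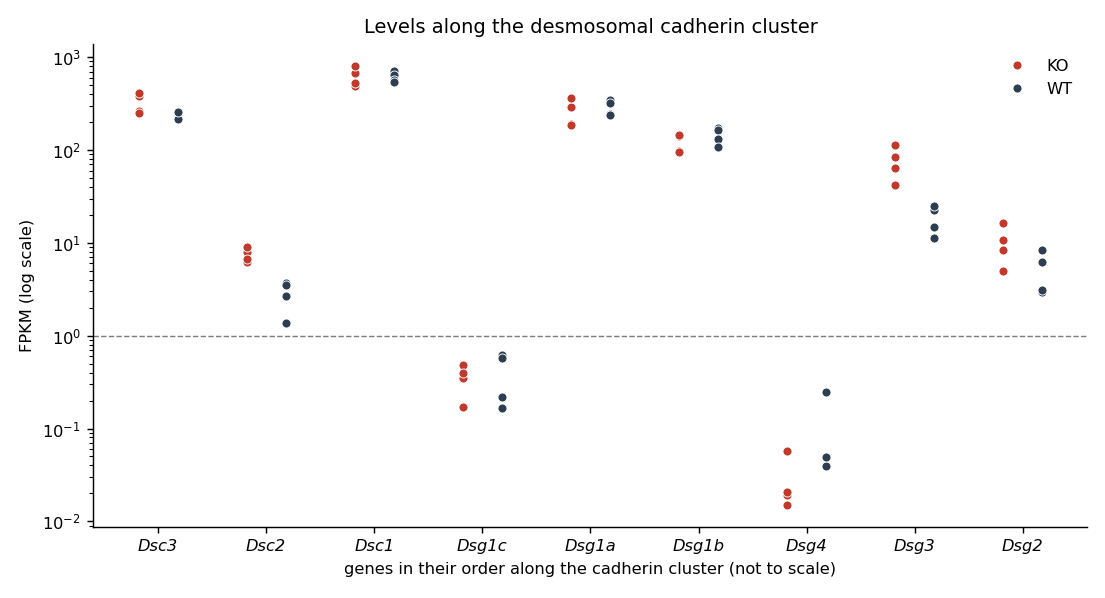
FPKM (vertical axis, log scale) of the 9 cadherin genes in their order along the cluster, each KO library left and each WT library right; the dashed line marks 1 FPKM, and Dsg4 had no value in WT2. The KO points lie above the WT points for Dsc2 and Dsg3 and overlap them for the other 7 genes.

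Beyond the 10, 13 related desmosome and keratin genes were counted, of which 9 were tested. Among the 13, Krt5 and Krt14 were also counted with the basal markers, and Krt1 and Krt10 with the suprabasal markers. By limma 2 of the 9, Pkp2 and Krt14, were higher in KO and 7 did not pass, with a median log2 change of 0.48. Krt14 is thus counted as higher in both lists. The share of all genes called higher was 6.72%. Pkp2, the plakophilin of heart and simple epithelia, was measured at 1.05, 1.12, 1.29 and 1.05 FPKM in KO1 to KO4, against 0.0811, 0.104, 0.237 and 0.247 FPKM in WT1 to WT4. All KO libraries lay above all WT libraries (log2 change 0.87 ± 0.14, SE, limma adjusted p = 0.0030). It reached the minimum for testing through its KO libraries alone, so a difference was a condition of its being tested. Krt14, the basal keratin that desmosomes anchor, was higher by 1.46 ± 0.43 (SE, limma adjusted p = 0.0464) with overlapping groups, and that call was lost in 9 of 18 alternatives, among them Xist as a covariate (limma adjusted p = 0.261), each title code set alone and leaving out KO1, KO2, KO3, WT1 or WT2. Perp, a tetraspan membrane protein of desmosomes, was measured at 2220, 2519, 2891 and 2891 FPKM in KO1 to KO4, against 4349, 3687, 2910 and 2715 FPKM in WT1 to WT4. The groups overlapped and Perp did not pass (limma adjusted p = 0.262), but it passed, as lower, with array weights (0.0479). Ppl and Evpl, plakins that link desmosomes to the cornified envelope, differed by -0.14 and -0.11 on the log2 scale and did not pass (limma adjusted p = 0.592 and 0.725).

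The adherens junction is the actin-linked neighbour of the desmosome. Of 12 of its genes tested, 1 was higher by limma, near the 6.72% of all genes called higher, and 11 did not pass. Their median log2 change was 0.10. The higher gene was Nectin2, an immunoglobulin-type adhesion molecule, at 48.4 ± 4.99 FPKM in KO and 27.7 ± 2.68 FPKM in WT (SD, n = 4 each; log2 change 0.78 ± 0.12, SE, limma adjusted p = 0.0021). Nectin4, another nectin, differed by -0.37 ± 0.14 (SE, limma adjusted p = 0.102) and passed with title code as a block (0.0343), with array weights (0.0128) and without KO4 (0.0475). Ctnna1, alpha-catenin, differed by 0.28 ± 0.12 (SE, limma adjusted p = 0.181) and Afdn, afadin, by -0.23 ± 0.11 (SE, limma adjusted p = 0.210). Ctnna1 passed with array weights (limma adjusted p = 0.0198).

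Proteases of the outer epidermis and their inhibitors, among them those that cut corneodesmosin, were tested for 15 of 16 listed genes. By limma 2 were higher in KO, 6 were lower and 7 did not pass, with a median log2 change of -0.21. Over all genes 6.72% were higher and 8.94% lower. Klk6, a kallikrein, averaged 65.1 ± 9.41 FPKM in KO and 9.86 ± 5.16 FPKM in WT (SD, n = 4 each; log2 change 2.69 ± 0.26, SE, limma adjusted p = 0.0002). Ctsl, cathepsin L, averaged 454 ± 53.6 FPKM in KO and 131 ± 42.0 FPKM in WT (log2 change 1.83 ± 0.20, SE, limma adjusted p = 0.0003). Spink5, which encodes the inhibitor of Klk5 and Klk7, averaged 176 ± 32.5 FPKM in KO and 405 ± 91.1 FPKM in WT (log2 change -1.18 ± 0.19, SE, limma adjusted p = 0.0030). Klk11 fell by 0.79 on the log2 scale (limma adjusted p = 0.0038). Klk5 and Klk7, the proteases best known for cutting corneodesmosin, differed by -0.21 ± 0.16 and 0.27 ± 0.16 and did not pass (SE, limma adjusted p = 0.446 and 0.320).

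Markers of other cell types were summed in the same way. The summed immune markers were 2.03 to 3.66 FPKM in KO and 8.22 to 23.5 FPKM in WT, without overlap. The summed melanocyte markers were 18.2 to 93.0 FPKM in KO and 14.6 to 84.5 FPKM in WT, with overlap. The fibroblast markers were 30.6 to 251 FPKM in KO and 63.3 to 164 FPKM in WT, and the hair follicle markers 307 to 863 FPKM in KO and 158 to 434 FPKM in WT, each with overlap. Most of the follicle sum was Krt17, at 293 to 814 FPKM in KO and 137 to 386 FPKM in WT. Of 6 follicle markers tested 4 had a positive log2 change, Krt25 and Krt71 differed by -0.84 and -1.15, and none passed by limma. Krt27, not tested, was at 0.09 to 0.52 FPKM in KO and 0.84 to 6.62 FPKM in WT. Muscle markers summed to 0.167 to 3.30 FPKM in KO and 0.393 to 31.1 FPKM in WT, the highest in WT3, and those of endothelium stayed below 1 FPKM. No gene of these sums was at 0 in every library, and Cd207, Cdh5, Kdr and Myh8 were not analysed here. The part of these cells in the changes of Dsg3, Dsc2 and Cdsn was not tested.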

How the data were processed

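RNA depleted of ribosomal RNA had been sequenced as stranded paired-end libraries on an Illumina NextSeq, per the labels' protocols. The authors deposited FPKM values, 1 per gene symbol and library, with mm10 named as the build in the submitters' processing notes. Which aligner, quantifier and annotation made them, and whether strand was used, is not stated in the sources used here. FPKM holds no counts, so the depth is unknown and no counting interval is given.

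Genes at 1 FPKM or more in at least 4 of the 8 libraries were tested (11395 of 15995; 3 of 7 or 2 of 4 in smaller fits). A missing value (2029 genes had any) was taken as 0, and Krt1, Krt10, Flg2 and Rn45s, listed at 0 in some libraries and very high in others, were left out. Log2(FPKM + 1) was compared with limma 3.58.1 (R 4.3.3) allowing the variance to follow the mean level, and p-values were adjusted by Benjamini-Hochberg over all genes tested. Log2 changes are KO minus WT on that scale, which understates changes of low genes. The 6 ratios are log2 ratios of FPKM without a pseudocount.

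The 10 genes, gene lists, tests and alternatives were chosen with earlier results of these data known. Named genes are the set, the related desmosome genes, the 4 of each list with the smallest p, and the 3 most correlated with Dsg3, Dsc1 and Cdsn; Klk5 and Klk7 were added after their values were seen. Older symbols served for 4 list genes. Coordinates are from GENCODE M21 on GRCm38, the build of mm10. RefSeq promoter windows (GRCm38.p6) matched 3 of the 10 genes, and the last 50 bases of each window of 300, inside the transcript, were left out. The fitting code was tested on data with known changes.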

Additional observations from a re-analysis of the deposited data

Results flagged for a closer look

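Cdsn in WT3 stood far from the other WT libraries, at 799 FPKM. Its gap to the next WT value was 0.898 of the group's range, above Dixon's 95% limit for 4 samples. Of 34 groups checked this was the 1 that passed, and chance passes about 1 in 20. WT3 also had the lowest summed FPKM, 483416, and the highest summed muscle markers, 31.1 FPKM. Their part in the Cdsn value was not tested. Without WT3 the log2 change of Cdsn was -0.98 (limma adjusted p = 0.0006).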

How the results depend on the processing

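Dsg3 and Cdsn passed in all 18 limma alternatives, with log2 changes of 1.54 to 2.37 and -1.39 to -0.98, and Dsc2 passed in 17. The genes called over all 11395 moved from 1785 to 3669 with array weights and to 1141 with Xist as a covariate, and lay between 1123 (without WT1) and 2326 (without KO4) with 1 library left out. Those higher moved from 766 to 1942 and 465 under the same pair of settings (474 to 1083 with 1 left out, at most 505 without KO2, KO3, WT1 or WT2), and those lower from 1019 to 1727 and 676 (649 to 1243 with 1 left out) and to 575 in code 44 alone. With array weights 2 desmosome genes were lower, Dsp beside Cdsn. Signs changed, without a call, for Dsg1a with Xist (0.093), for Dsc1 with quantile normalization (0.077), Xist (0.18), code 44 alone (0.12) and 1 library left out (-0.14 to 0.10), for Pkp1 with quantile normalization (0.023), Xist (0.081) and 1 left out (-0.12 to 0.018), for Pkp4 with Xist (-0.083), for Ppl in code 44 (0.020), and for Evpl with Xist (0.090) and 1 left out (-0.24 to 0.0055). The cause was not tested.

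Permuting within title codes cannot give a p below 0.0833, so the ratio differences of 2.22 (Dsg3 to Dsg1a), 1.50 (Dsc2 to Dsc1), -0.98 (Cdsn to Dsg1a) and 2.29 (Dsg3 to Dsp) could not pass there. With 1 library left out they ranged over 1.87 to 2.67, 1.17 to 1.69, -1.13 to -0.71 and 2.02 to 2.63.

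Counts for lists moved more. Basal markers called higher numbered 2 with Xist as a covariate and 3 without KO1, KO2, KO3 or WT2, 4 without WT1. Related desmosome genes called higher ranged from 1 to 5 over the alternatives. With array weights 5 were higher, Dsg2, Pkp4 and Krt5 among them, and 2 were lower, Dsg1b and Perp. Pkp4 also passed without KO4 (limma adjusted p = 0.0478). Suprabasal markers called lower numbered 1 with Xist, in codes 11 and 14 alone and without KO1, KO2, KO3, WT1 or WT2. Proteases and inhibitors called lower numbered 3 in code 44 alone. Adherens junction genes called higher numbered 3 with array weights, and 1 was lower with array weights, with the block and without KO4. Replicate numbers were not used as a block, since KO and WT titles have only 1 number in common. With title code as a block Dsg3, Dsc2 and Cdsn stayed called, and of the named genes Pkp3, Dsg2 and Nectin4 were added.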
